A study of Mus musculus with 6 samples.

Results

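The mitochondrial ribosomal proteins were the 78 genes of the deposited expression table whose Ensembl identifier maps to a mouse symbol beginning with Mrpl or Mrps and a number. They comprised 49 genes named for the large subunit (Mrpl) and 29 named for the small subunit (Mrps), out of 56750 rows in the table. The 5 rows that map to pseudogenes of this family were left out. All 78 genes passed the filter on low values, so none was lost from the comparison below.

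These proteins are encoded in the nucleus, translated in the cytosol and imported into mitochondria. There they assemble with the 2 ribosomal RNAs of the mitochondrial genome into the mitoribosome, the machine that translates the small set of respiratory chain proteins encoded by mitochondrial DNA. The small subunit holds the decoding centre, where messenger and transfer RNA pair, and the large subunit holds the peptidyl transferase centre, where the protein chain grows. Some of the proteins have counterparts in bacterial ribosomes and others are found only in mitochondria. Mitochondrial translation is known to matter for blood stem cells, which rest with low respiratory activity and raise it as they differentiate.

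The study compared mice with colitis, made by giving 2.5% dextran sulfate sodium (DSS) for 5 days and called DIC in the labels, with control mice. All animals were C57BL/6, and per the labels the cells were LSK cells, the lineage-negative, Sca1-positive and cKit-positive bone marrow fraction that holds stem cells and multipotent progenitors, isolated by flow cytometry. There were 3 DIC and 3 control libraries from 3 mice per group, prepared by SMART-Seq chemistry for small amounts of RNA and read as pairs on a NovaSeq instrument. Column numbers of the table give the names DIC 1 to 3 and controls 1, 2 and 4. Age, sex and what the control mice drank are not given in the sources used here, and nothing beyond the statement of 3 mice per group describes the replication. Levels are in TPM, a measure of relative transcript abundance scaled for transcript length and for the total of each library, so that levels of different genes can be set side by side. The unit keeps no read depth, and the depth behind each value is therefore unknown.

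The libraries differed in the levels of cell type marker genes, in ways that touch every value below. The summed share of 18 neutrophil genes in a library's TPM was 22.7%, 15.6% and 19.0% for DIC 1 to 3, against 4.24%, 12.6% and 3.05% for controls 1, 2 and 4. Most of this was S100a8 and S100a9 in each library. The list did not move as one, since in DIC 2 Mmp8 (13.3 TPM), Retnlg (81.4 TPM) and Cxcr2 (6.95 TPM) lay within the range of the controls. None of the 18 genes was at 0 in any library, and by the summed share control 2 stood close to the DIC libraries. The 2 genes of the sort were low beside S100a8 and S100a9 in all libraries. Kit was at 90.7, 82.3 and 95.2 TPM in DIC and 54.2, 99.5 and 68.2 TPM in controls. Ly6a, which encodes Sca1, was at 23.8, 18.9 and 15.5 TPM in DIC and 19.7, 33.0 and 49.9 TPM in controls. The full list of 12 sort and stem or multipotent progenitor genes summed to 376, 414 and 443 TPM in DIC and 495, 606 and 551 TPM in controls. These values alone do not show that the RNA came mainly from LSK cells. Nor do levels of different genes measure the share of any cell type. A list of 8 mast cell and basophil genes summed to 434, 506 and 600 TPM in DIC, against 1633, 1027 and 3491 TPM in controls. Prss34 gave 132, 169 and 209 TPM of this in DIC and 864, 415 and 1800 TPM in controls. Of the 8 genes, 7 had negative fold changes. The exception was Hdc, at 131, 109 and 117 TPM in DIC and 86.5, 114 and 106 TPM in controls (log2 fold change 0.23). Other lists also differed. All 9 erythroblast genes had positive fold changes, and they summed to 744, 191 and 459 TPM in DIC and 207, 188 and 244 TPM in controls, with DIC 2 among the controls. All 7 tested B lineage genes and all 5 tested T and NK cell genes had negative fold changes. The B lineage list summed to 493, 457 and 476 TPM in DIC and 476, 586 and 803 TPM in controls. Ighm alone gave 392, 266 and 287 TPM of this in DIC and 270, 336 and 336 TPM in controls, a log2 fold change of -0.009. The T and NK cell list summed to 1313, 1786 and 1492 TPM in DIC and 1969, 1761 and 2224 TPM in controls. Nearly all of this was Nkg7, at 1302.2, 1781.6 and 1483.1 TPM in DIC and 1958.5, 1747.5 and 2205.5 TPM in controls. The T cell genes Cd3e, Cd3d, Cd4, Cd8a and Trac did not pass the filter on low values. Macrophage and dendritic cell genes were split, with 5 of 8 tested negative. The part of these lists in the members' values was not tested. In such bulk RNA, fewer cells of a type and less RNA per cell cannot be told apart.

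The proximal promoters of the 3 most abundant members of each subunit are shown because the family is encoded at many separate places in the genome. Of the 78 members, 69 matched the RefSeq promoter table of build GRCm38.p6, which gives 250 bases before and 50 bases after each annotated start, with 75 promoters between them. Capitals mark matches to 3 motifs of factors known to bind promoters of nuclear genes for mitochondrial proteins. They are the core of the NRF1 site (GCATGCGC, or GCGCATGC on the other strand), an ETS site bound by factors such as GABP (CCGGAAGT or ACTTCCGG) and a YY1 site (AAGATGGC or GCCATCTT). The windows are Mrpl33 at chr5:31613701-31614000 on the plus strand, Mrpl42 at chr10:95501900-95502199 on the minus strand, Mrpl17 at chr7:105811038-105811337 on the minus strand, Mrps21 at chr3:95871465-95871764 on the minus strand, Mrps14 at chr1:160194965-160195264 on the plus strand and Mrps18c at chr5:100798509-100798808 on the plus strand, each written 5′ to 3′ along the gene.
Mrpl33: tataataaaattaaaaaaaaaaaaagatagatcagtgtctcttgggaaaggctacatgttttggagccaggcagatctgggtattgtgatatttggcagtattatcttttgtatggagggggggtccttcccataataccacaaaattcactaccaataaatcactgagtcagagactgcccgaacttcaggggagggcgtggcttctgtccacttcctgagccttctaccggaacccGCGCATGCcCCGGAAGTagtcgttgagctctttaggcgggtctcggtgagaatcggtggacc
Mrpl42: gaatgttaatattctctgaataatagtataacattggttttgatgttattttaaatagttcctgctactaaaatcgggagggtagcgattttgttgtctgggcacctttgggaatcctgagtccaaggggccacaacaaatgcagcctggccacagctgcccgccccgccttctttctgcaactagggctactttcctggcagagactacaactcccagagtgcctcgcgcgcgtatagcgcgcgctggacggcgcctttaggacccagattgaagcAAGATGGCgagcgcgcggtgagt
Mrpl17: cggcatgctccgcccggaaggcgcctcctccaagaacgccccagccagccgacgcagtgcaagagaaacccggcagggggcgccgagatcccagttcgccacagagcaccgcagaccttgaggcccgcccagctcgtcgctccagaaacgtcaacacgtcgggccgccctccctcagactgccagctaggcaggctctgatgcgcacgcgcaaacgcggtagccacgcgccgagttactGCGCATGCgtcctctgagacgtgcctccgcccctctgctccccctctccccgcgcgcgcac
Mrps21: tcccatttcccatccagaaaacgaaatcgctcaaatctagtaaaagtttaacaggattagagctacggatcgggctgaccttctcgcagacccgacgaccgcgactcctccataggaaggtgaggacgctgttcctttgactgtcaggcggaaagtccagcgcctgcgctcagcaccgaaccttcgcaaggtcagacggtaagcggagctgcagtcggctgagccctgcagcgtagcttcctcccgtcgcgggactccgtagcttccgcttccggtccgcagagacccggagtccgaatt
Mrps14: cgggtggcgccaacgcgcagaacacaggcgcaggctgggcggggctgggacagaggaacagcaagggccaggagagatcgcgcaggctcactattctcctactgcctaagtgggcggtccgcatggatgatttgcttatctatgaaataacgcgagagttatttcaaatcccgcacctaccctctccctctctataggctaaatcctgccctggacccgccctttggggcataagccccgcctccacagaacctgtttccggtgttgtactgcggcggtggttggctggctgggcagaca
Mrps18c: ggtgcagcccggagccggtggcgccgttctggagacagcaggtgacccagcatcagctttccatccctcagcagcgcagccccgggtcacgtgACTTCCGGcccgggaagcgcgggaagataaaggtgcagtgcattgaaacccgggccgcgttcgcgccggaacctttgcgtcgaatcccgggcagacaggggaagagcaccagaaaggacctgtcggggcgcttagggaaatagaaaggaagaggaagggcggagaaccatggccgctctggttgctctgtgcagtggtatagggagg

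In Mrpl33 the NRF1 core began at position -12 and the ETS site at position -3, where the annotated start is position 1 and the base before it position -1. In Mrpl17 the NRF1 core began at position -11. The YY1 site of Mrpl42 lay downstream of its start, at position 28. The ETS site of Mrps18c lay farther upstream, at position -157. The promoters of Mrps21 and Mrps14, the 2 most abundant small-subunit members, held none of these letters. Over all 75 member promoters, 29 (38.7%) held at least 1 of the motifs, against 17.3% of the promoters of all tested genes and 8.83% of all promoters in the table. The YY1 site was in 16% of member promoters (4.7% for tested genes, 2.75% for the table), the ETS site also in 16% (8.43% and 3.89%) and the NRF1 core in 10.7% (5.4% and 2.71%). By subunit, the NRF1 core was in 7 of 48 large-subunit and 1 of 27 small-subunit promoters, and the YY1 site in 6 of 48 and 6 of 27. Matches to the NRF1 core on opposite strands can overlap each other, and each promoter was counted once per motif. The median GC content was 58.7% in member promoters, 60.3% in those of tested genes and 52.7% in the table. These matches are descriptions of sequence and show neither binding nor activity in these cells.

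All 78 members were expressed at moderate levels in every library. Their mean over the 6 libraries ran from 15.3 TPM for Mrpl47 to 563 TPM for Mrpl33, a 36.9-fold range with a median of 72.0 TPM. The lowest single value was 10.9 TPM, and 25 members averaged 100 TPM or more, 14 of the large and 11 of the small subunit. The 6 most abundant members held 24.5% of the family's TPM. The order of the members was close to constant, with Spearman correlations across the 78 genes of 0.954 to 0.989 over the 15 pairs of libraries. These are correlations across genes, which are not independent replicates. Pearson correlations between libraries over all tested genes were 0.907 to 0.964. A stable order was thus not shown to be particular to the members.

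Mrpl33 (ENSMUSG00000106918), a small large-subunit protein with a bacterial counterpart, stood above all other members, at 539, 447 and 507 TPM in DIC 1 to 3 and 743, 476 and 669 TPM in controls 1, 2 and 4. Its DIC values reached above control 2, so the groups overlapped. Mrpl42 (ENSMUSG00000062981), a mitochondria-specific protein of the large subunit, was next at 215, 267 and 266 TPM in DIC and 424, 275 and 364 TPM in controls, without overlap. Below these the levels were closely spaced. Mrpl17, Mrpl30, Mrpl57 and Mrpl20 followed in the large subunit, averaging 165 ± 15.5, 152 ± 11.3, 157 ± 15.0 and 145 ± 7.12 TPM in DIC and 221 ± 48.7, 229 ± 44.0, 209 ± 34.2 and 181 ± 33.7 TPM in controls (SD, n = 3 each). Neighbours among these 4 differed by less than the spread of the control libraries.

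In the small subunit the most abundant was Mrps21 (ENSMUSG00000054312), the counterpart of a bacterial small-subunit protein, at 241, 218 and 256 TPM in DIC and 240, 245 and 273 TPM in controls. Its groups overlapped almost wholly. Mrps14 (ENSMUSG00000058267), also with a bacterial counterpart, was at 200, 205 and 232 TPM in DIC and 275, 222 and 287 TPM in controls. Mrps18c (ENSMUSG00000016833) was at 177, 187 and 201 TPM in DIC and 242, 208 and 249 TPM in controls, and here the groups were apart. Mrps36, Mrps33 and Mrps17 came after these, averaging 129 ± 16.0, 110 ± 9.47 and 108 ± 9.71 TPM in DIC and 148 ± 32.0, 151 ± 14.1 and 129 ± 16.7 TPM in controls (SD, n = 3 each).

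At the low end, Mrpl47, Mrpl1 and Mrpl50 of the large subunit averaged 12.7 ± 1.60, 13.6 ± 1.79 and 23.7 ± 2.95 TPM in DIC and 17.8 ± 5.72, 17.1 ± 4.62 and 25.5 ± 2.83 TPM in controls (SD, n = 3 each). Mrpl1 is the protein of the mobile stalk at the exit side of the large subunit. Mrps31, Mrps30 and Mrps27 of the small-subunit names averaged 14.9 ± 1.60, 16.8 ± 0.993 and 22.8 ± 3.10 TPM in DIC and 16.1 ± 1.80, 27.0 ± 4.91 and 36.2 ± 8.76 TPM in controls. Mrps27 is a pentatricopeptide repeat protein, a class of RNA-binding proteins common in mitochondria.

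**Figure D1:**
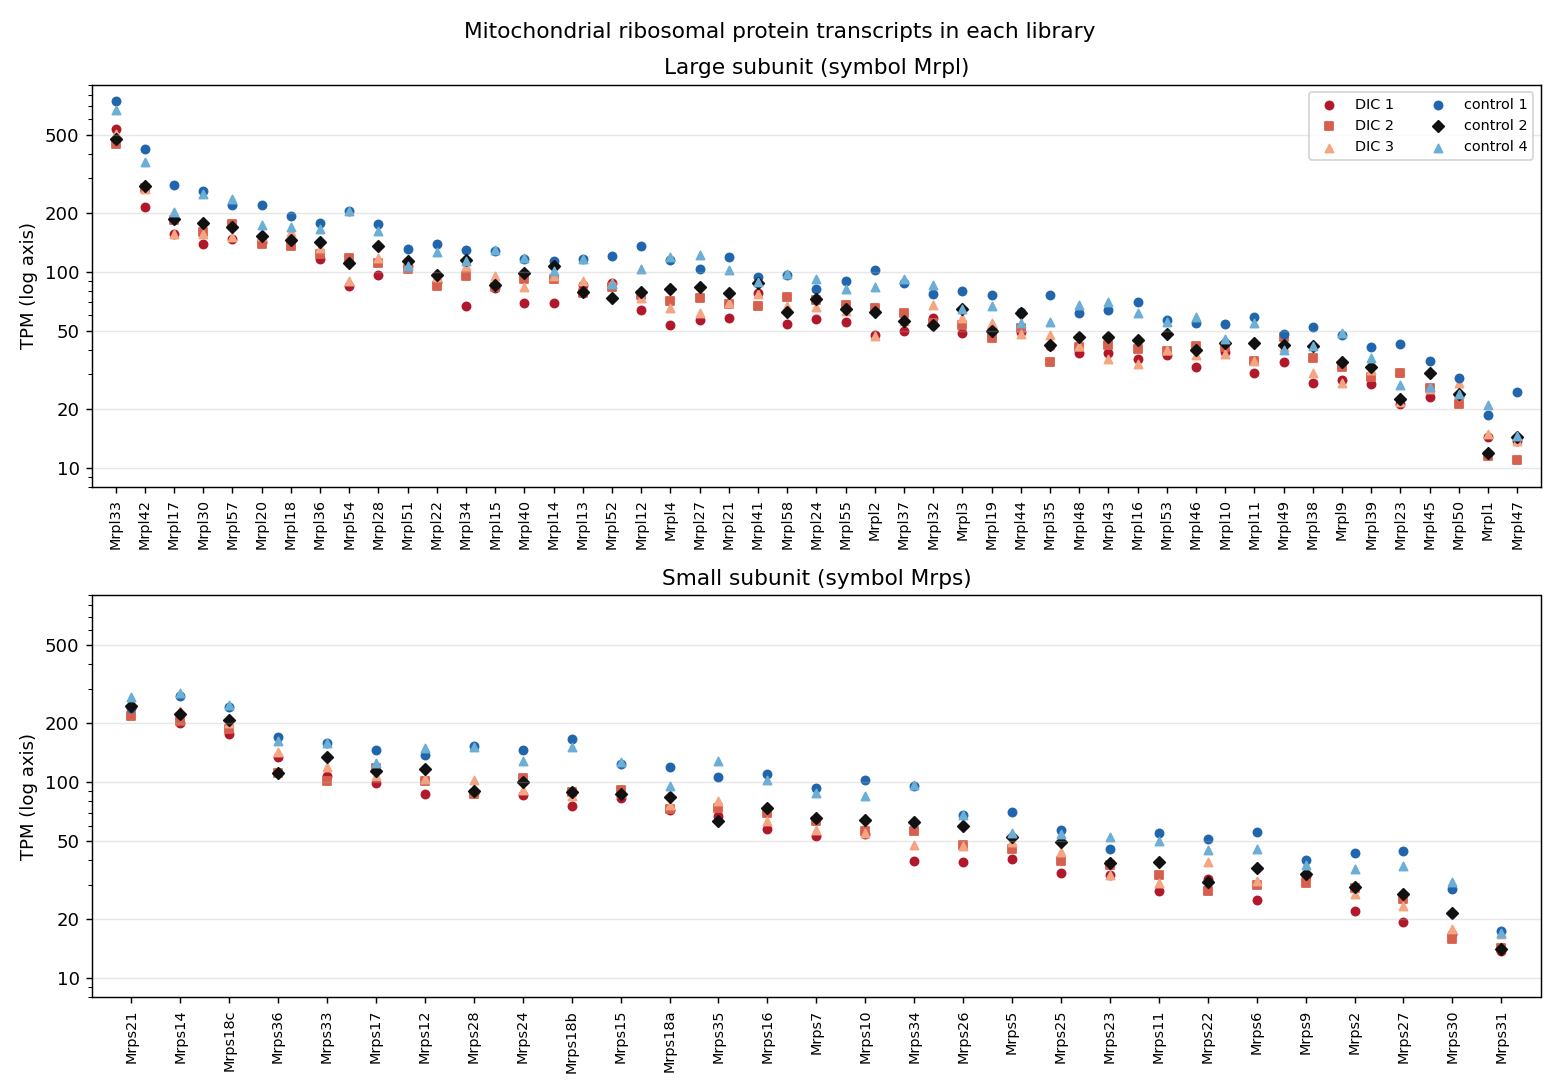
Levels of the 78 members in the 6 libraries, with TPM on a log axis, 1 panel per subunit, members ordered by mean level, and DIC and control libraries as separate points. Mrpl33 stands above all others in the large subunit, the small subunit declines from Mrps21 to Mrps31, and most control points lie above the DIC points of the same member.

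Mitochondrial ribosomal protein transcripts took a smaller part of the total in DIC. Their TPM summed to 5788, 6219 and 6370 in DIC 1 to 3, against 9206, 6674 and 8585 in controls 1, 2 and 4. The means were 6126 ± 302 TPM in DIC and 8155 ± 1320 TPM in controls (SD, n = 3 each), a ratio of 0.751. The groups were apart, and control 2 lay nearer to DIC 3 than to the other controls. As a share of all TPM this was 0.579%, 0.622% and 0.637% in DIC and 0.921%, 0.667% and 0.858% in controls. An exact permutation test of 3 libraries against 3 was not made, since its smallest possible p is 0.1.

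No single member passed the test across all genes. With limma and Benjamini-Hochberg adjustment over 13496 tested genes, 0 of 78 members were lower in DIC and 0 were higher, and the lowest adjusted p among them was 0.212. Over all tested genes 0.0222% were called lower and 0.037% higher, so hardly any gene in the table passed. All 78 members nevertheless had a negative log2 fold change (DIC minus control), against 58.5% of all tested genes and 64.6% of the 7631 tested genes that averaged 10 to 600 TPM, the range of these members. Their median log2 fold change was -0.41, with quartiles of -0.53 and -0.30 and a range of -0.80 to -0.08. The median was -0.08 over all tested genes and -0.13 over those at 10 to 600 TPM. Fold changes are on the scale of log2(TPM + 1).

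Counts by looser rules describe the same shift. At an unadjusted limma p under 0.05, 42 members (53.8%) were lower in DIC and 0 higher, where 13.8% of all tested genes were lower. In 47 members (60.3%) all DIC libraries lay below all controls, against 18.4% of all tested genes and 23.8% of those at 10 to 600 TPM. In 0 members did all DIC libraries lie above all controls, against 7.08% of all tested genes. The members were measured in the same 6 libraries and are not independent of each other.

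**Figure D2:**
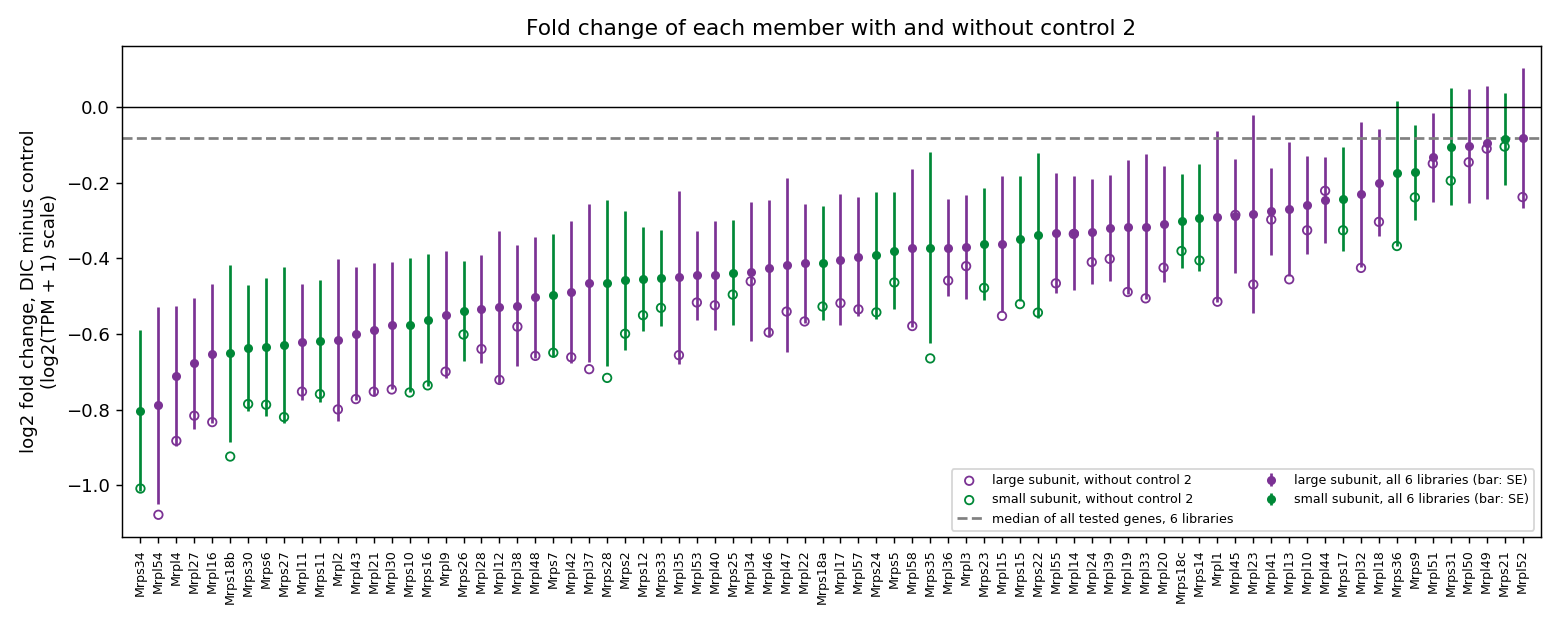
Log2 fold change, DIC minus control, of each member over all 6 libraries (filled points, bars give the standard error) and without control 2 (open points), ordered by size, purple for the large and green for the small subunit, with the median of all tested genes as a dashed line. All 78 filled points lie below 0, from -0.80 for Mrps34 to -0.08 for Mrpl52, the subunits are mixed along the order, and most open points lie lower than the filled ones.

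Among large-subunit members, the 5 with the lowest p were Mrpl11, Mrpl27, Mrpl4, Mrpl53 and Mrpl28, each with adjusted p = 0.212 by limma with Benjamini-Hochberg adjustment. Mrpl11 (ENSMUSG00000024902), which forms the base of the stalk that recruits translation factors, was at 30.5, 35.1 and 35.0 TPM in DIC 1 to 3 and 59.1, 43.2 and 55.0 TPM in controls 1, 2 and 4, a log2 fold change of -0.62 ± 0.15 (SE). Mrpl27 (ENSMUSG00000024414), whose bacterial counterpart reaches toward the peptidyl transferase centre, was at 56.5, 73.5 and 61.4 TPM in DIC and 104, 83.9 and 122 TPM in controls (-0.68 ± 0.17). In both genes the groups were apart and control 2 was the lowest control. Mrpl4 (ENSMUSG00000003299), a counterpart of a bacterial protein at the wall of the exit tunnel, was at 53.7, 70.9 and 65.5 TPM in DIC and 115, 81.7 and 119 TPM in controls (-0.71 ± 0.18). Mrpl53 (ENSMUSG00000030037), a mitochondria-specific protein, was at 37.5, 39.2 and 39.7 TPM in DIC and 56.7, 48.1 and 55.1 TPM in controls (-0.45 ± 0.12). Its DIC libraries were close together and well below control 2. Mrpl28 (ENSMUSG00000024181), with a bacterial counterpart, was at 96.8, 111 and 117 TPM in DIC and 176, 135 and 162 TPM in controls (-0.53 ± 0.14), again without overlap.

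Mrpl54 (ENSMUSG00000034932) had the most negative fold change of the large subunit and one of the widest spreads between libraries of a group. This mitochondria-specific protein was at 84.6, 117 and 89.7 TPM in DIC and 203, 111 and 205 TPM in controls (log2 fold change -0.79 ± 0.26, limma adjusted p = 0.212). Control 2 lay below DIC 2, so the groups overlapped. Mrpl12 (ENSMUSG00000039640), the stalk protein that also binds the mitochondrial RNA polymerase, was at 64.1, 75.9 and 73.6 TPM in DIC and 135, 78.6 and 103 TPM in controls (-0.53 ± 0.20, limma adjusted p = 0.222). Its groups were apart by a narrow margin between DIC 2 and control 2. Mrpl58 (ENSMUSG00000018858), a peptidyl-tRNA hydrolase that frees stalled chains and is also built into the large subunit, was at 54.1, 74.3 and 66.5 TPM in DIC and 96.3, 62.6 and 97.2 TPM in controls (-0.37 ± 0.21, limma adjusted p = 0.347), with control 2 inside the DIC range.

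Among small-subunit members, the 5 with the lowest p were Mrps26, Mrps11, Mrps30, Mrps34 and Mrps33, each with adjusted p = 0.212 by limma with Benjamini-Hochberg adjustment. Mrps34 (ENSMUSG00000038880), a mitochondria-specific protein needed for a stable small subunit, had the most negative fold change of the family, at 39.8, 56.4 and 48.1 TPM in DIC 1 to 3 and 96.3, 62.8 and 97.3 TPM in controls 1, 2 and 4 (-0.80 ± 0.21). The groups were apart, although control 2 was nearer to DIC 2 than to the other controls. Mrps26 (ENSMUSG00000037740), also mitochondria-specific, was at 39.1, 48.0 and 47.1 TPM in DIC and 68.0, 59.8 and 68.3 TPM in controls (-0.54 ± 0.13). Mrps11 (ENSMUSG00000030611), a counterpart of a bacterial protein of the platform, was at 27.9, 33.6 and 30.7 TPM in DIC and 55.0, 39.1 and 50.3 TPM in controls (-0.62 ± 0.16). Both were lower in each DIC library than in any control. Mrps33 (ENSMUSG00000029918), mitochondria-specific, was at 107, 102 and 120 TPM in DIC and 159, 134 and 158 TPM in controls (-0.45 ± 0.13). Mrps12 (ENSMUSG00000045948), the counterpart of the bacterial decoding-centre protein in which streptomycin resistance arises, was at 87.5, 102 and 104 TPM in DIC and 137, 117 and 149 TPM in controls (-0.45 ± 0.14, limma adjusted p = 0.212), also without overlap.

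The small-subunit names include 3 related genes, Mrps18a, Mrps18b and Mrps18c, which share descent from 1 bacterial protein. Mrps18b (ENSMUSG00000024436) was at 75.5, 89.1 and 85.4 TPM in DIC and 166, 89.5 and 152 TPM in controls (log2 fold change -0.65 ± 0.23, limma adjusted p = 0.218). DIC 2 and control 2 nearly met. Mrps18a (ENSMUSG00000023967) was at 72.4, 73.0 and 76.5 TPM in DIC and 120, 84.0 and 95.7 TPM in controls (-0.41 ± 0.15, limma adjusted p = 0.218). The fold change of the more abundant Mrps18c, whose values stand above, was -0.30 ± 0.12 (limma adjusted p = 0.237). All 3 paralogs had every DIC library below every control. The differences between their fold changes were not tested.

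Some names do not match the place of the protein. Mrps18a and Mrps30 sit in the large subunit in published structures, and Mrps36 is now known as a component of the 2-oxoglutarate dehydrogenase complex of the citric acid cycle. Mrps30 (ENSMUSG00000021731) was at 16.8, 15.9 and 17.9 TPM in DIC and 28.4, 21.6 and 31.1 TPM in controls (log2 fold change -0.64 ± 0.17). Mrps36 (ENSMUSG00000061474) was at 135, 111 and 142 TPM in DIC and 170, 111 and 163 TPM in controls (-0.18 ± 0.19, limma adjusted p = 0.627), and its control 2 value equalled the lowest DIC value at this rounding. Mrps36 was thus among the members with small differences.

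The smallest differences were found in Mrpl52, Mrps21, Mrpl49, Mrpl50 and Mrps31, which were picked for this after their values were seen. Their log2 fold changes ran from -0.11 to -0.08. Mrpl52 (ENSMUSG00000010406) was at 87.7, 84.0 and 87.4 TPM in DIC and 120, 73.5 and 86.6 TPM in controls (-0.08 ± 0.18, limma adjusted p = 0.822). Control 1 alone lay above all DIC libraries. Mrps21, the most abundant small-subunit member, had -0.09 ± 0.12 (limma adjusted p = 0.715). Mrpl49 (ENSMUSG00000007338) was at 34.6, 46.3 and 41.3 TPM in DIC and 47.9, 42.3 and 40.0 TPM in controls (-0.09 ± 0.15, limma adjusted p = 0.745).

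The values of Mrpl23 are uncertain. Mrpl23 (ENSMUSG00000037772) was at 21.1, 30.4 and 21.5 TPM in DIC and 42.7, 22.5 and 26.4 TPM in controls (log2 fold change -0.28 ± 0.26, limma adjusted p = 0.558), with the groups overlapping and the widest spread of the large subunit beside Mrpl54. Its pseudogene row Mrpl23-ps1, a near-identical copy, was listed at 117, 159 and 137 TPM in DIC and 236, 176 and 262 TPM in controls. The sum of both rows was 138, 190 and 158 TPM in DIC and 279, 199 and 289 TPM in controls, without overlap. Reads may be shared between such copies, so neither row is a firm measure of its gene. In the small subunit, Mrps35 (ENSMUSG00000040112) varied most between libraries of a group, at 67.0, 73.8 and 80.0 TPM in DIC and 107, 63.3 and 128 TPM in controls (-0.37 ± 0.25, limma adjusted p = 0.427), with control 2 below all DIC libraries.

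**Figure D3:**
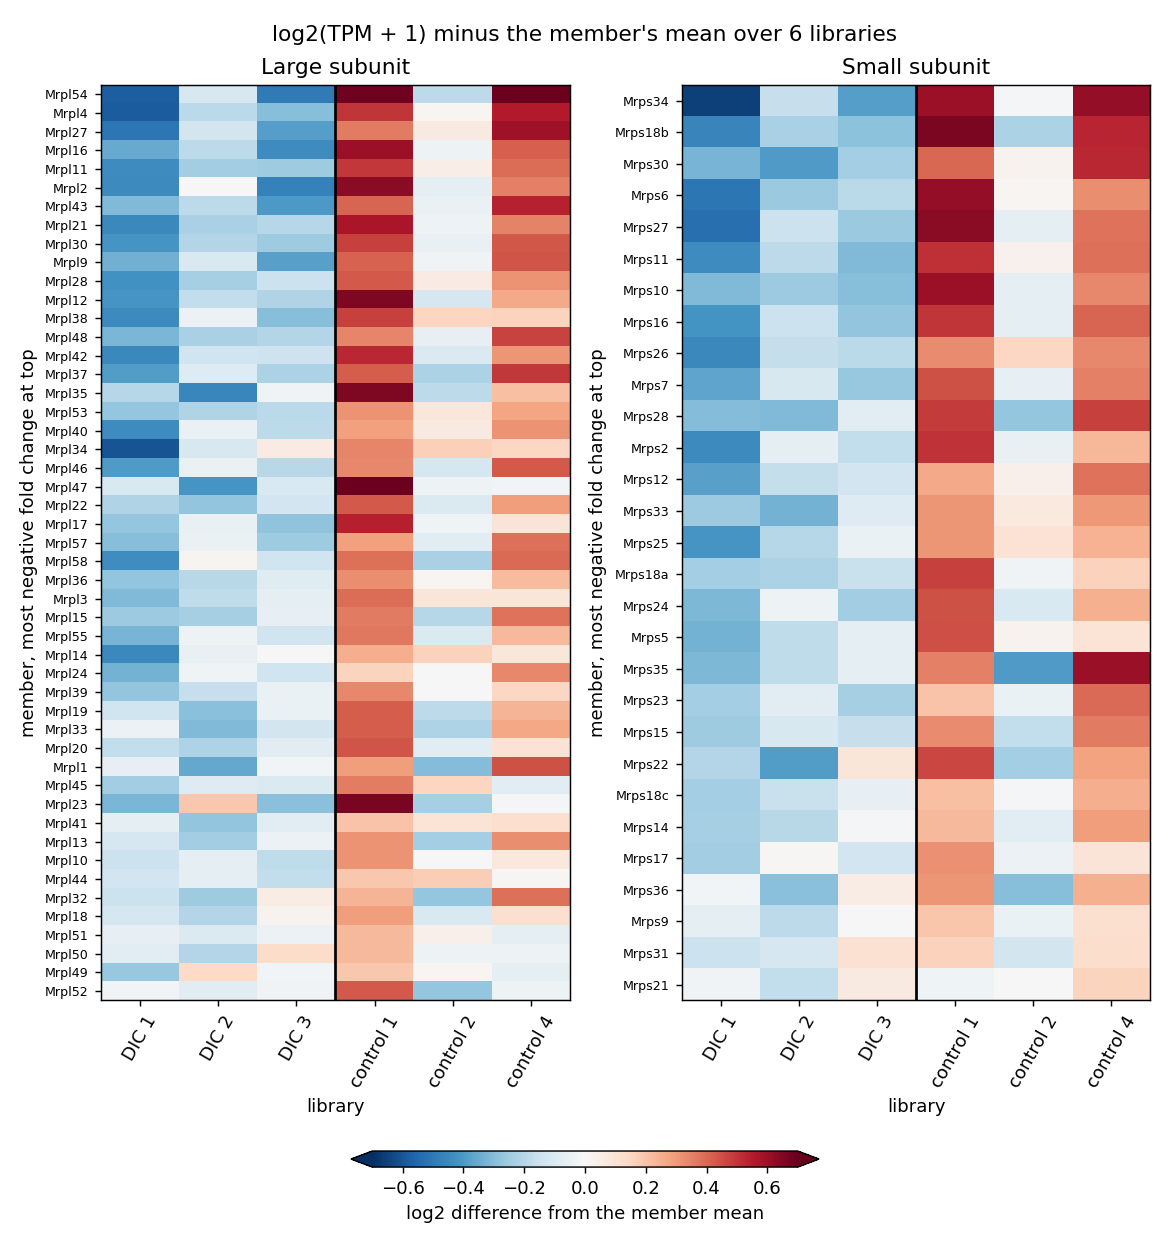
Log2(TPM + 1) of each member minus that member's mean over the 6 libraries, as colour, with libraries as columns and members as rows, most negative fold change at the top of each subunit. Controls 1 and 4 are above the mean for most members and DIC 1 below it for most. Control 2 is the lowest control in 69 of 78 members and lies inside or below the DIC range in 30.

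Large and small subunits had like median differences. The median log2 fold change was -0.40 over the 49 large-subunit members and -0.44 over the 29 small-subunit members, a difference of 0.04 between the medians. The large-subunit sum was 3726, 4032 and 4064 TPM in DIC 1 to 3 and 6038, 4307 and 5493 TPM in controls 1, 2 and 4. The small-subunit sum was 2062, 2187 and 2306 TPM in DIC and 3168, 2367 and 3092 TPM in controls. Both sums were lower in each DIC library than in any control. Their ratio, large over small, was 1.81, 1.84 and 1.76 in DIC and 1.91, 1.82 and 1.78 in controls, so the groups overlapped. Per gene, a large-subunit member averaged 1.07, 1.09 and 1.04 times a small-subunit member in DIC and 1.13, 1.08 and 1.05 times in controls. The ratio of the median members behaved otherwise. The median large-subunit level was 55.3, 67.7 and 65.5 TPM in DIC and 93.9, 64.8 and 88.7 TPM in controls, and the median small-subunit level was 54.4, 63.3 and 56.9 TPM in DIC and 102.9, 64.5 and 95.7 TPM in controls. Their ratio, large over small, was 1.02, 1.07 and 1.15 in DIC and 0.912, 1.01 and 0.926 in controls, and by this measure every value of DIC was above the controls. Whether the subunits looked balanced thus depended on the summary used.

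In counts, both subunits stood above the share over all tested genes, and their shares without overlap were nearly equal. In 29 of 49 large-subunit members (59.2%) and 18 of 29 small-subunit members (62.1%) all DIC libraries lay below all controls. The share over all tested genes was 18.4%. At an unadjusted limma p under 0.05, 24 large-subunit members (49.0%) and 18 small-subunit members (62.1%) were lower in DIC, against 13.8% of all tested genes. With the subunits assigned by structure, 51 and 26 genes, the medians were again -0.40 and -0.44. The shares without overlap were then 60.8% and 61.5%, and those by unadjusted limma p were 51.0% and 61.5%. No test between the subunits was made, because the members share their libraries.

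Members with a bacterial counterpart and members found only in mitochondria did not differ much in fold change, by a grouping made after the values were seen and not tested. The 46 members with a counterpart had a median level of 83.1 TPM and a median log2 fold change of -0.40. In 28 of them (60.9%) all DIC libraries lay below all controls. The 31 mitochondria-specific members had a median level of 54.6 TPM, a median log2 fold change of -0.43 and 19 such members (61.3%). The share was 18.4% over all tested genes and 23.8% over those at 10 to 600 TPM. Mrps36 was counted in neither group.

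The size of the difference rested in large part on which controls were used. Control 2 was the lowest control in 69 of 78 members (88.5%, against 36.2% of all tested genes), 41 of 49 in the large and 28 of 29 in the small subunit. It lay inside or below the DIC range in 30 members (38.5%, against 61.1% of all tested genes) and below all DIC libraries in 4 (5.13%, against 16.5%). The median ratio of the DIC mean to control 2 was 0.890, with 63 of 78 members under 1, and the median ratio to the mean of controls 1 and 4 was 0.687, with 78 of 78 under 1. DIC was thus lower than either set, with a difference from control 2 much smaller than from the other controls.

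Without control 2, limma with Benjamini-Hochberg adjustment called 37 of 78 members (47.4%) lower and 0 higher in DIC, where 8.45% of all tested genes were lower and 3.93% higher. The 37 were 22 large-subunit and 15 small-subunit members, and the share was 11.8% among tested genes at 10 to 600 TPM. In that fit the 10 members named above for their low p all fell, with Mrps34 at a log2 fold change of -1.01 (adjusted p = 0.0251) and Mrpl11 at -0.75 (adjusted p = 0.0253). Mrpl54 also fell (-1.08, adjusted p = 0.0223), as did Mrps18b (-0.92, adjusted p = 0.0184), Mrpl12 (-0.72, adjusted p = 0.0391) and Mrps12 (-0.55, adjusted p = 0.0406). Mrpl33 did not pass (-0.51, adjusted p = 0.0514), nor did Mrps36 (-0.37, adjusted p = 0.126). The median over all members was -0.53, and 72 of 78 (92.3%) had all DIC libraries below controls 1 and 4, against 30.9% of all tested genes. Leaving out any other single library left 0 members called.

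**Figure D4:**
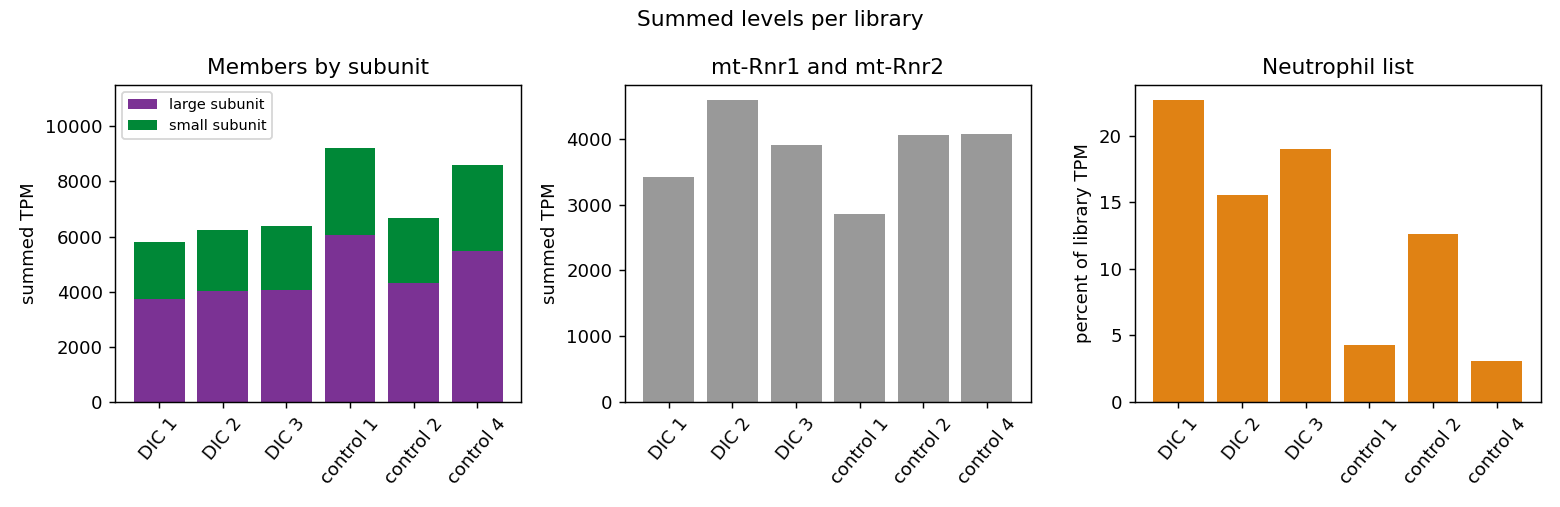
Per library, the summed TPM of the large and the small subunit (stacked bars), the summed TPM of the mitoribosomal RNAs mt-Rnr1 and mt-Rnr2, and the share of TPM taken by the neutrophil list in percent, with DIC libraries left of controls. Both subunit sums are lowest in the DIC libraries and lower in control 2 than in controls 1 and 4, the RNA sums overlap between the groups, and the neutrophil share is highest in DIC and higher in control 2 than in the other controls.

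The summed level of the family was lower where the neutrophil share was higher when the groups are compared, and in both measures control 2 lay between DIC and the other controls. Outside the neutrophil list, the members made up 0.748%, 0.737% and 0.787% of what remained for DIC 1 to 3, against 0.961%, 0.764% and 0.885% for controls 1, 2 and 4. Control 2 then lay inside the DIC range. With the neutrophil list removed and TPM rescaled, 69 members still had negative fold changes, while the median of all genes moved from -0.08 to 0.10 and that of the members to -0.20. With the neutrophil score as a covariate, 52 members were negative and their median was -0.07, beside -0.10 for all genes. The neutrophil share was higher in each DIC library than in any control. With 6 libraries the covariate fit therefore cannot well separate group from neutrophil level, and it called 0 of 13496 tested genes in either direction. The part of neutrophils or of other cell types in the members' difference was not tested.

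The ribosomal RNAs of the mitoribosome had fold changes above 0, unlike all of the members. The small-subunit RNA mt-Rnr1 was at 1055, 988 and 1167 TPM in DIC 1 to 3 and 602, 900 and 1291 TPM in controls 1, 2 and 4 (log2 fold change 0.27 ± 0.27, limma adjusted p = 0.601). The large-subunit RNA mt-Rnr2 was at 2367, 3604 and 2738 TPM in DIC and 2257, 3163 and 2778 TPM in controls (0.08 ± 0.23, limma adjusted p = 0.865). Both overlapped between the groups, and neither passed the test. Of the 13 proteins encoded by mitochondrial DNA, the products of this ribosome, 12 had negative fold changes, with a median over the 13 of -0.25, and 0 were called lower. The exception, mt-Nd4l, was called higher (limma adjusted p = 0.0206) at 27.9, 75.0 and 17.9 TPM in DIC, but was listed at 0 in all 3 controls although mt-Nd4, which it overlaps, was at 1457 to 2390 TPM there. A listed 0 of this kind can be a failed estimate.

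Mitoribosome proteins under other names also had lower means in DIC. All 5 genes of this list had negative fold changes (median -0.33), against 58.5% of all tested genes. In 2 of them (40%) all DIC libraries lay below all controls, against 18.4% of all tested genes. Gadd45gip1, of the large subunit, was at 18.3, 18.9 and 20.6 TPM in DIC and 31.3, 22.9 and 28.9 TPM in controls (-0.49 ± 0.16, limma adjusted p = 0.212). Aurkaip1, of the small subunit, was at 117, 112 and 121 TPM in DIC and 161, 136 and 145 TPM in controls (-0.33 ± 0.11, limma adjusted p = 0.213). Chchd1, Dap3 and Ptcd3, also of the small subunit, had log2 fold changes of -0.42, -0.15 and -0.06. Of these 5, Gadd45gip1 alone (20%) was called lower without control 2 (limma adjusted p = 0.0375), where 8.45% of all tested genes were.

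Genes that build or serve the mitoribosome had median fold changes nearer to 0, with 0 called in either direction in each of 4 lists. At an unadjusted limma p under 0.05 the 4, in the order below, had 5 (20%), 3 (17.6%), 2 (9.09%) and 4 (25%) lower genes, beside 13.8% of all tested genes. Of 25 assembly factors, 20 had negative fold changes (median -0.21) and 7 (28%) had all DIC libraries below all controls, where 18.4% of all tested genes did. Mtg1, a GTPase of large-subunit assembly, was at 14.7, 16.5 and 14.3 TPM in DIC and 27.9, 23.4 and 23.2 TPM in controls (-0.68 ± 0.14), and Mettl17, a factor of small-subunit assembly, was at 17.7, 9.03 and 13.0 TPM in DIC and 24.1, 34.3 and 28.6 TPM in controls (-1.11 ± 0.25, limma adjusted p = 0.212 for both). Unlike most members, both had control 2 at or above another control. Of 17 translation factors, 13 were negative (median -0.06), and the 3 without overlap (17.6%) were about the share over all tested genes. Pdf, the deformylase that trims new chains, was at 10.4, 12.6 and 12.7 TPM in DIC and 23.5, 23.8 and 15.8 TPM in controls, and Tsfm, an elongation factor, was at 35.0, 40.1 and 36.4 TPM in DIC and 61.4, 40.7 and 53.2 TPM in controls.

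Of 22 mitochondrial aminoacyl-tRNA synthetases and related enzymes, which charge transfer RNAs, 17 were negative (median -0.11), and the 4 without overlap below the controls (18.2%) were again about the share over all tested genes. Yars2 was at 28.2, 29.4 and 32.5 TPM in DIC and 45.3, 33.2 and 42.0 TPM in controls, and Gatb at 8.47, 11.0 and 13.0 TPM in DIC and 15.9, 14.3 and 14.6 TPM in controls. Of 16 tested genes of mitochondrial transcription and DNA maintenance, 10 were negative (median -0.08). In 5 of the 16 (31.2%) all DIC libraries lay below all controls, a larger share than the 18.4% of all tested genes. Tfb2m, a transcription factor of the mitochondrial genome, was at 14.7, 14.6 and 13.5 TPM in DIC and 17.8, 19.9 and 22.3 TPM in controls, and the RNA polymerase Polrmt at 10.4, 15.5 and 12.5 TPM in DIC and 17.4, 21.0 and 16.0 TPM in controls. The median of all tested genes, -0.08, lay close to the medians of these last 3 lists and well above that of the ribosomal proteins. Whether the lists differ from each other was not tested.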

How the data were processed

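RNA sequencing measured gene expression in 6 libraries, 3 DIC and 3 control. The authors deposited 1 table of TPM values for 56750 genes. Per the submitters' processing notes, fastp 0.19.5, HISAT2 2.1.0, StringTie 2.1.2 and build GRCm39 were used. For the annotation, the release was not given in sources used here. TPM keeps no depth, so no counting interval could be given. Between 20474 and 22720 genes lay above 0 TPM in a library. TPM is a share of each library's total, so a few abundant transcripts lower all other values.

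Symbols were matched by Ensembl identifier to an annotation of GRCm38, which named 52081 identifiers. Coordinates are given only for RefSeq promoters, in their own build. The control columns numbered 1 and 4 have a clear group but no single matching sample, since labels of 1 sample disagree on its number.

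A gene was tested where 3 or more of the 6 libraries had 1 TPM or more. Values of log2(TPM + 1) were fitted on group alone in R 4.3.3 with limma 3.58.1, its prior variance following a trend on mean level. Two-sided p-values had Benjamini-Hochberg adjustment over 13496 genes at a threshold of 0.05. The fit was checked on simulated data. The neutrophil score was the mean log2 value of the neutrophil list. Of 185 entries in the gene lists, 3 had no row. The members, lists and tests were chosen with earlier results of these data known.

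Named members were, per subunit, the 6 highest and 3 lowest by mean level, the 5 with the lowest p among negative and the 3 among positive fold changes, those past the threshold, the 2 with the largest spread within groups, and a fixed set by function. In other lists they were the called genes or, failing these, the 2 lowest by p. Others are said to have been picked after their values were seen. The alternatives were a pseudocount of 0.1, no filter or one of 5 TPM, quantile normalization, removal of the neutrophil list, its score as a covariate, no trend, array weights, a replicate block by column number, subunits assigned by structure and each library left out in turn.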

Additional observations from a re-analysis of the deposited data

How the results depend on the processing

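The count of called members was 0 under 14 of 15 refits and 37 without control 2, the upper end of a range of 0 to 37 over the 6 leave-one-out fits. Members whose groups did not overlap numbered 47, against 28 after quantile normalization and 26 with the neutrophil list removed, and 47 to 72 with 1 library left out. Non-overlap is easier to reach with fewer libraries. The share over all tested genes was 18.4% with all 6 libraries and 30.9% without control 2, the fit with 72 members. For the other settings this share is not given here, so their counts are not like for like. The large- and small-subunit medians were -0.396 and -0.438 in the main fit. After quantile normalization they were -0.233 and -0.262, and 72 members had negative fold changes. The 2 medians were -0.191 and -0.238 with the neutrophil list removed and -0.0824 and -0.0337 with the neutrophil score as covariate. The difference between these medians, 0.0427, was -0.0487 with that covariate and -0.00101 with array weights, and ran from 0.0149 without DIC 1 to 0.0606 without DIC 3. It is smaller than its movement between settings. The causes were not tested, except that fewer libraries are compared when 1 is left out. The correlations of deviations were -0.07 and -0.10 for the shared column numbers 1 and 2. With so few libraries these cannot settle whether column numbers pair them. With the column number as a replicate block 0 members were called and the subunit medians were -0.408 and -0.436. That fit had few libraries left to estimate spread, so its count of 0 says little. The 10 members named for their low p kept their direction under all 15 refits and passed the threshold only without control 2. They were picked for negative fold changes in these same libraries, so the kept direction is no separate support. Their log2 fold changes ran from -0.803 (Mrps34) to -0.445 (Mrpl53) in the main fit. With the neutrophil score as covariate they ran from -0.318 (Mrps33) to -0.0665 (Mrps34). With no depth in the unit, counting error could not be separated from other spread.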
